A study of Mus musculus with 8 samples.

Results

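Knockout and wild type macrophages were compared here in the absence of LPS, in 4 of the 8 libraries of the series. RNA was sequenced from cultured peritoneal macrophages, phagocytes that live in the abdominal cavity, of C57BL/6 mice that were wild type or α7nAChR-/-, a genotype without the gene Chrna7 for the α7 nicotinic acetylcholine receptor. The 4 libraries were wild type with vehicle, wild type with nicotine at 10 µM, knockout with vehicle and knockout with nicotine at 10 µM. Nicotine or vehicle was given for 15 min, and all 4 then received vehicle in place of LPS for 4 h. The other 4 libraries had the same genotypes and first treatments followed by LPS, a bacterial cell wall component, at 100 ng/ml. Each group was 1 library. Knockout was compared with wild type within each nicotine state, which gave a vehicle pair and a nicotine pair, 2 libraries on each side. Of 24339 genes, the 8293 with at least 5 FPKM in any of the 4 libraries were compared. FPKM stands for sequenced fragments adjusted for how long the transcript is and how large the library is. Differences are knockout minus wild type of log2(FPKM + 1), a scale on which genes with low values show smaller changes than their FPKM ratio.

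The α7 receptor is a cation channel opened by acetylcholine and by nicotine. In macrophages it is known for the cholinergic anti-inflammatory pathway, in which vagus nerve activity or nicotine lowers the release of tumour necrosis factor and other cytokines after LPS, in part through the kinase JAK2 and the transcription factor STAT3. The libraries compared here had no LPS, so the question is what the genotypes differed in before that stimulus.

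Chrna7 itself was listed at 0 FPKM in all 4 libraries, wild type included, so its value did not check the genotype labels. It lies on chromosome 7, 63098692 to 63212569, minus strand, in GRCm38. A listed 0 can be a failed estimate in this table, since the universal glycolytic gene Gapdh had only 1.34 to 3.23 FPKM in these libraries. The sum of FPKM ran from 413052 to 529093 per library, and the depth in reads is not given. Across the 8293 genes, the log2 values of the 2 genotypes had a Pearson correlation of 0.934 with vehicle and 0.958 with nicotine. The correlation between vehicle and nicotine was 0.810 within wild type and 0.824 within knockout. Labels give no sex, age or number of animals, nor whether a genotype's libraries share 1 cell preparation. Genotype and preparation therefore cannot be told apart. The p-values reflect the spread between these libraries and nothing wider.

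With limma at a Benjamini-Hochberg adjusted p under 0.05, 461 genes (5.56%) were higher and 408 (4.92%) were lower in the knockout, together 10.5% of the genes tested. The median difference over all tested genes was -0.01. In both pairs 271 genes (3.27%) were at least 2-fold apart with the same sign, 177 higher (2.13%) and 94 lower (1.13%). The spread in this test is the departure of each gene from additive effects of genotype and nicotine, with 1 residual degree of freedom. In limma this spread is drawn towards a trend over all genes, with 4.61 prior degrees of freedom. Each SE and p given here is moderated in this way and is not the gene's own spread alone. Of the higher genes, 81 (17.6%) were under 5 FPKM in both wild type libraries and so entered the test only through the knockout, and 60 (14.7%) of the lower genes entered only through wild type. In a fit of all 8 libraries 297 genes passed, which fell to 4 without the wild type vehicle or without the knockout vehicle library, to 69 without wild type nicotine and to 65 without knockout nicotine. With genotype as the only term limma passed no gene, and 207 had an unadjusted p under 0.05, against 2334 in the design with nicotine.

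**Figure D1:**
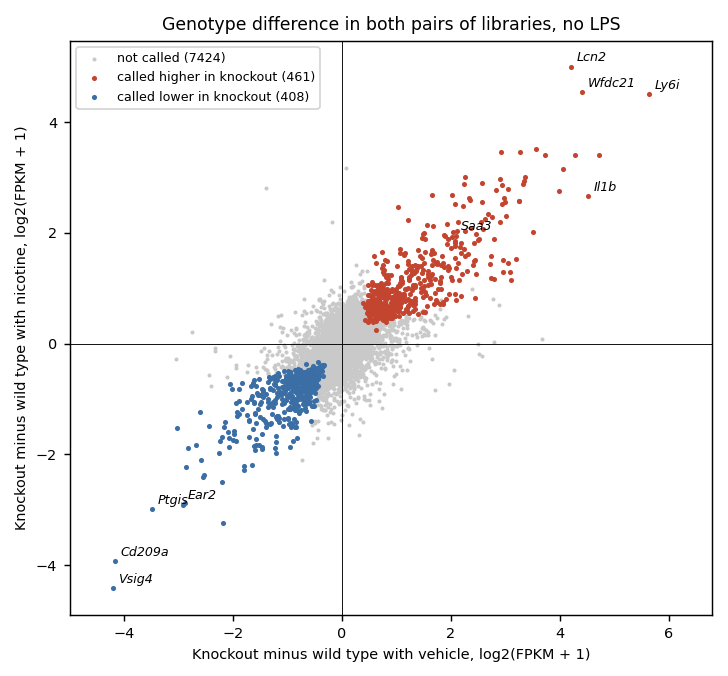
Each point is 1 of the 8293 genes, with the knockout minus wild type difference in log2(FPKM + 1) for the vehicle pair on the x axis and for the nicotine pair on the y axis. The 461 red and 408 blue genes passed the test as higher or lower in the knockout, and Ly6i, Lcn2 and Wfdc21 lie at the upper right and Vsig4 and Cd209a at the lower left.

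The 14 genes that stood furthest above wild type in both pairs encode secreted antimicrobial proteins, surface antigens, a protease, chemokines and interferon-response proteins. Ly6i, a surface antigen gene of the Ly6 family (chromosome 15, 74979534 to 74983430), had 0.927 FPKM in wild type given vehicle and 1.07 in wild type given nicotine, against 95.3 and 46.0 in the knockout. Paired values below keep this order, vehicle first. The difference was 5.07 ± 0.27 (SE). Genes such as this one, which reached 5 FPKM in 1 genotype only, entered the test through that genotype alone, so no p is given in support of their differences. Ly6c2, a family member that marks inflammatory monocytes, had 1.97 and 2.29 FPKM in wild type and 76.6 and 33.9 in the knockout, a difference of 4.06 ± 0.30. Reads of Ly6 genes can be split between near-identical copies, so the share of each member is uncertain. Lcn2, encoding the iron-withholding antibacterial protein lipocalin 2, was listed at 0.361 and 0 FPKM in wild type and at 24.1 and 31.0 in the knockout. Wfdc21, a gene of the whey acidic protein family, was listed at 0 in both wild type libraries and at 20.2 and 22.3 FPKM in the knockout. For both of these genes the 2 knockout libraries lay above the 2 wild type libraries, as did 949 (11.4%) of all tested genes, and no fold is given for Wfdc21.

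Among receptors and enzymes of this group, Fpr2, encoding a formyl peptide receptor, had 18.5 and 12.2 FPKM in wild type and 376 and 139 in the knockout (3.84 ± 0.22, limma adjusted p = 0.00128). Mmp14, encoding a membrane-bound matrix metalloproteinase, had 16.9 and 9.18 FPKM in wild type and 210 and 116 in the knockout (3.54 ± 0.12). Tarm1, an activating myeloid receptor gene, was at 0.311 and 0.106 FPKM in wild type and 12.5 and 7.91 in the knockout. Cst7, encoding the protease inhibitor cystatin F, was at 3.49 and 3.07 FPKM against 42.3 and 43.9. In these genes, picked for large differences in both pairs, both knockout libraries exceeded both wild type libraries, as in 11.4% of all tested genes. For Cst7 the libraries of each genotype were close to each other. Serf1 had 4.31 and 3.39 FPKM in wild type and 52.2 and 31.6 in the knockout. Cfb, encoding complement factor B of the alternative pathway, rose from 146 and 170 FPKM to 1486 and 1318 (3.14 ± 0.13). The other 4 genes, Cxcl3, Ccl5, Irf7 and Zbp1, are described with their groups. Of all 28 genes named by this rule in either direction, 26 also passed in the fit of 8 libraries, the exceptions being Cxcl3 and Apoc1. Without either vehicle library only Ly6i, Wfdc21, Ly6c2 and Cst7 passed there, and without either nicotine library 10 of the 28.

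**Figure D2:**
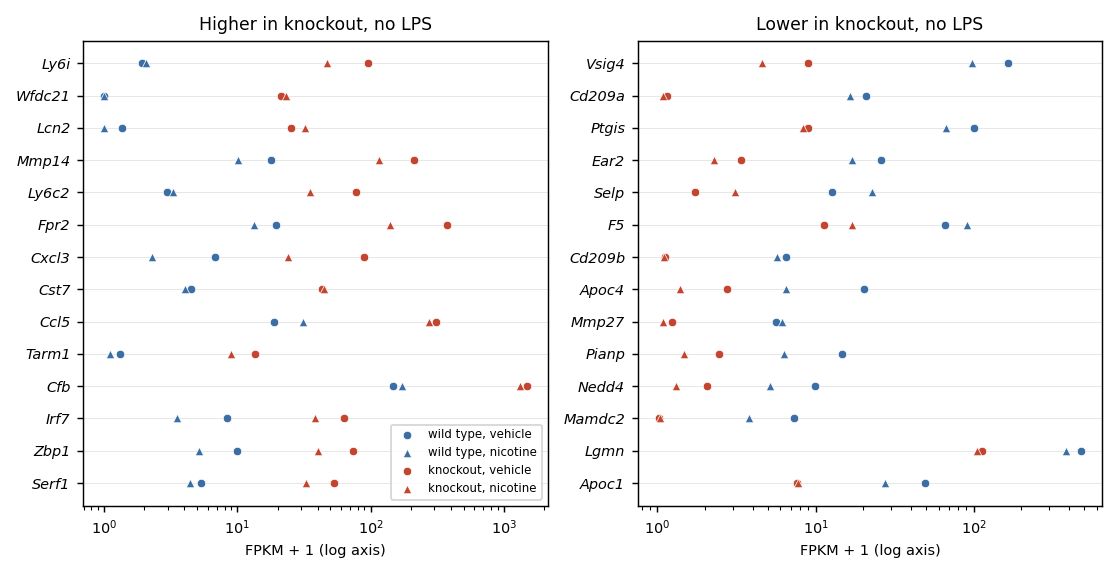
FPKM + 1 on a log axis is plotted for the 14 genes furthest above and the 14 furthest below wild type, with 1 point for each of the 4 libraries without LPS. Knockout and wild type points do not overlap for any of the 28 genes, which were picked for large differences in both pairs. Of all tested genes, 11.4% had both knockout libraries above both wild type libraries and 9.0% had them below. The largest mean difference is at Ly6i on the higher side and at Vsig4 on the lower side.

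Genes of the acute phase and antimicrobial response were mostly higher in the knockout. Of 14 tested members, 8 were higher (57.1%) and 1 lower (7.14%), with a median difference of 1.19. Such shares of a list are to be read against 5.56% higher and 4.92% lower over all tested genes, and its median against -0.01. Of the 14 members, 4 reached 5 FPKM in the knockout only and 1 in wild type only, and entered the test through that genotype. Saa3, encoding a serum amyloid A protein that macrophages secrete during inflammation (chromosome 7, 46711998 to 46715700), had 7608 and 8217 FPKM in wild type and 32418 and 31734 in the knockout, where it was the gene with the highest value. The difference was 2.02 ± 0.05 (limma adjusted p = 0.000321). Both knockout libraries lay above both wild type libraries, as in 11.4% of all tested genes. Lyz2, encoding lysozyme and the highest gene of wild type, had 32448 and 23697 FPKM there and 28713 and 22831 in the knockout, and did not pass (-0.12 ± 0.04, adjusted p = 0.155). Cp, encoding the copper carrier ceruloplasmin, had 8.68 and 6.31 FPKM in wild type and 47.6 and 44.1 in the knockout. Hp, encoding haptoglobin, which binds free haemoglobin, had 308 and 208 FPKM against 1190 and 548, and the protease inhibitor gene Slpi 1375 and 1604 against 3089 and 3917. S100a8, a calprotectin subunit gene, was higher as well (1.44 ± 0.14). Ifitm6 was lower, with 10.6 and 13.4 FPKM in wild type and 2.67 and 2.15 in the knockout.

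Interferon-stimulated genes, which encode antiviral proteins and are switched on when interferons bind their receptors, were higher in the knockout in most members. Of 36 tested members 32 passed as higher (88.9%, against 5.56% of all tested genes) and none as lower, with a median difference of 1.62. However, 13 of the 36 were under 5 FPKM in both wild type libraries and were tested only because the knockout was higher. Where genes were instead filtered on a mean of 5 FPKM, 23 of 25 passed as higher, with a median of 1.35. That mean includes the knockout libraries, so members low in wild type could still enter through them. Under that filter the count in each direction changed by at most 3 members in every other list with at least 3 tested. The members that did not pass were Ifit2, Ifi204, Iigp1 and Irgm1. Isg15, encoding a ubiquitin-like antiviral protein (chromosome 4, 156199424 to 156200818), had 6.25 and 35.8 FPKM in wild type, against 54.8 and 210 in the knockout, a difference of 2.73 ± 0.15 (limma adjusted p = 0.00114). Irf7, encoding the transcription factor that amplifies the interferon response, had 7.28 and 2.49 FPKM in wild type and 61.7 and 37.5 in the knockout (3.19 ± 0.17). Zbp1, encoding a sensor of Z-form nucleic acid, had 8.88 and 4.16 FPKM against 72.5 and 39.5 (2.93 ± 0.12). In these 3 genes the knockout libraries lay above both wild type libraries, as in 11.4% of all tested genes.

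Other antiviral genes followed the same order. Gbp2, a guanylate-binding GTPase gene, had 54.1 and 28.5 FPKM in wild type and 301 and 116 in the knockout (2.22 ± 0.16). Oas1a, encoding an enzyme that senses double-stranded RNA, had 12.1 and 7.52 FPKM against 29.1 and 39.0 (1.72 ± 0.25), and its near-identical copies make that value uncertain. For Rsad2, which encodes viperin, the values were 0.753 and 2.80 FPKM against 9.50 and 14.9. Bst2, encoding tetherin, which holds budding virus at the cell surface, had 52.7 and 43.7 FPKM against 150 and 175. Ifit1 differed more in the vehicle pair than in the nicotine pair. It had 0.887 FPKM in wild type with vehicle and 15.0 in the knockout, but 0.324 and 2.27 with nicotine (2.19 ± 0.44). The count of higher members was 17 of 36 with quantile scaling, 9 in the fit of 8 libraries, 7 there without either nicotine library and 0 without either vehicle library.

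The bases just before the start of 4 of these genes and of Cxcl3 are shown, because members of the list moved together and many share a motif there. Capitals mark every match, on either strand, to GAAANNGAAA, the core of the interferon-stimulated response element, or in Cxcl3 to GGGANTTTCC, a form of the NF-kB site. Overlapping matches run together. The 150 bases end at the base before the RefSeq start on GRCm38.p6 and are written 5′ to 3′ on the gene's strand. They are chr4:156200819-156200968 for Isg15 and chr5:120907526-120907675 for Oas1a, both minus strand, and on the plus strand chr19:34640739-34640888 for Ifit1, chr3:142620513-142620662 for Gbp2 and chr5:90785951-90786100 for Cxcl3.
Isg15: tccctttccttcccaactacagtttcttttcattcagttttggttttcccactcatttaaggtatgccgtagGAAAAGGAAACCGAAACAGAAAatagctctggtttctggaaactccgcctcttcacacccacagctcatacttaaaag
Ifit1: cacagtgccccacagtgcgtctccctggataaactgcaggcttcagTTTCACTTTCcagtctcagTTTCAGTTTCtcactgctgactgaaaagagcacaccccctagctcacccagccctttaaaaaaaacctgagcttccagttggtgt
Gbp2: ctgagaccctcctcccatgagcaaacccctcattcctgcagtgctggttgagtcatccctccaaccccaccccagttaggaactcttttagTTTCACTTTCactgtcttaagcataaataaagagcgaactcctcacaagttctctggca
Oas1a: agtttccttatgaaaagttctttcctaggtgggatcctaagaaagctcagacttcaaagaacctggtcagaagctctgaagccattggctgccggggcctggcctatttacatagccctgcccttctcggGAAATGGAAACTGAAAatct
Cxcl3: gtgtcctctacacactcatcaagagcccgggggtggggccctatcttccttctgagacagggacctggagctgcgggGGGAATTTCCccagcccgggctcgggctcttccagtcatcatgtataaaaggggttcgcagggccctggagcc
In the 250 bases before the start, GAAANNGAAA was found for 17 of the 28 tested interferon-stimulated genes with a RefSeq window (60.7%), 39 of 358 genes higher in the knockout (10.9%) and 11 of 312 lower genes (3.53%). Among all 6437 tested genes with a window the share was 3.46%, and among all 32851 windows it was 2.98%. GGGANTTTCC was found for 5 of the 358 higher genes (1.4%) and 0.482% of the 6437 tested genes, and in 0.356% of all windows. A match describes these letters only.

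Genes of MHC class I antigen presentation, which displays peptides from inside the cell, were higher in the knockout in 11 of 15 tested members (73.3%), with none lower and a median difference of 0.93. The immunoproteasome subunit gene Psmb9 had 28.3 and 5.07 FPKM in wild type and 75.9 and 18.7 in the knockout (1.54 ± 0.14, limma adjusted p = 0.00412), and the groups overlapped because nicotine libraries were low in both genotypes. Psmb8 had 71.0 and 31.1 FPKM against 189 and 83.8. The peptide transporter gene Tap1 had 17.4 and 12.1 FPKM against 52.4 and 23. B2m, encoding the light chain of class I molecules, had 2441 and 3189 FPKM against 4609 and 4936. Its knockout libraries lay above both wild type libraries, as in 11.4% of all tested genes. H2-Q7 was higher as well (1.51 ± 0.13), although reads of class I genes can be split among similar copies. Only 3 members passed in the fit of 8 libraries and 8 with quantile scaling. Of 11 MHC class II genes 1 passed, H2-Ab1, with 396 and 471 FPKM in wild type and 591 and 622 in the knockout.

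**Figure D3:**
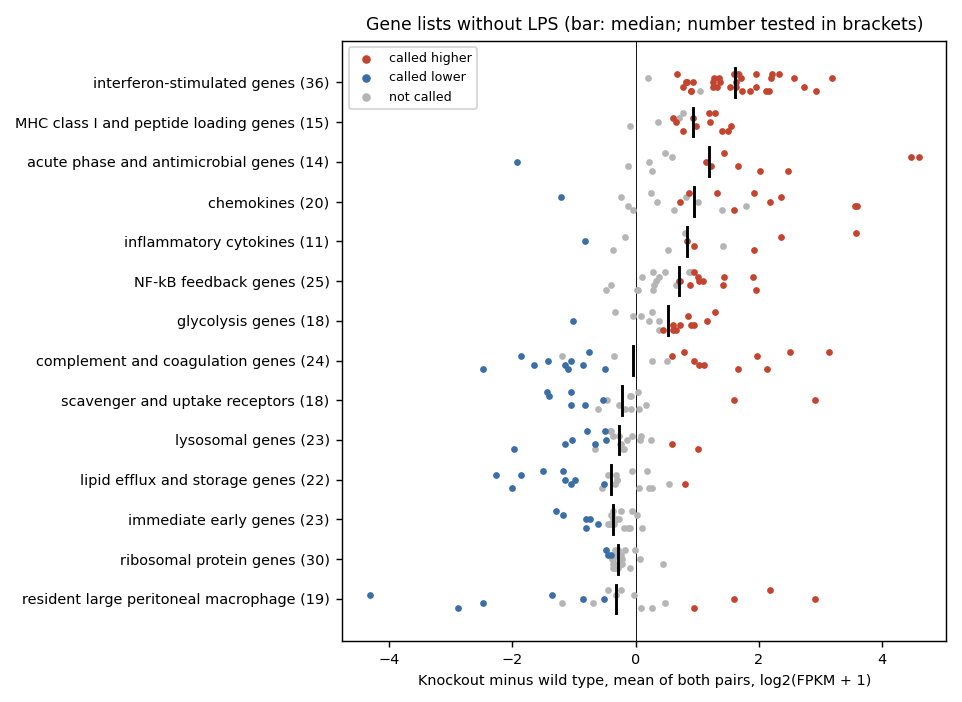
Each point is a tested gene of the named list, placed by its knockout minus wild type difference in log2(FPKM + 1) averaged over both pairs, with the number tested in brackets and a black bar at the list's median. Red points passed the test as higher and blue points as lower. The interferon list lies to the right of 0, the complement and coagulation list has 10 members called on each side, and the lipid list has 9 lower and 1 higher.

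Among inflammatory cytokines, 5 of 11 tested genes were higher in the knockout (45.5%) and 1 lower (9.09%), with a median difference of 0.83. Of the 11, 3 entered the test only through the knockout. Il1b, encoding interleukin 1β, had 2.97 and 0.850 FPKM in wild type and 89.9 and 10.7 in the knockout (3.59 ± 0.41). It entered the test only through the knockout, and the difference was larger in the vehicle pair. Il1a, encoding interleukin 1α, had 3.49 and 66.1 FPKM against 39.9 and 192, and here the nicotine libraries were the higher ones in both genotypes. Il1rn, encoding the antagonist of the same receptor, had 18.6 and 27.2 FPKM against 81.3 and 95.1. The interleukin 27 subunit gene Ebi3 and the interleukin 18 gene Il18 were higher by 0.95 ± 0.14 and 0.83 ± 0.14. Osm, encoding oncostatin M, was lower, with 7.58 and 123 FPKM in wild type and 3.90 and 69.4 in the knockout.

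Tnf, encoding tumour necrosis factor, did not pass. It had 9.88 FPKM in wild type with vehicle and 44.3 in the knockout, but 90.8 and 65.4 with nicotine, so the pairs differed in sign (0.80 ± 0.55, limma adjusted p = 0.402). Il6, encoding interleukin 6, had 0.264 and 4.16 FPKM in wild type and 5.31 and 6.33 in the knockout (1.41 ± 0.43, adjusted p = 0.0999). The interferon-inducible chemokine gene Cxcl10 had 4.17 and 1.25 FPKM against 34.4 and 2.95 (1.8 ± 0.44, adjusted p = 0.0612). In both of these genes the difference was larger with vehicle, and both reached 5 FPKM in the knockout only. Il10 and Nos2 were under 5 FPKM in all 4 libraries and were not tested.

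Of 20 tested chemokine genes 9 were higher (45.0%) and 1 was lower (5.0%, near the 4.92% of all tested genes), with a median difference of 0.95. Of the 20, 4 entered the test only through the knockout. Ccl5, a T cell and monocyte attractant, had 17.7 and 30.1 FPKM in wild type and 311 and 274 in the knockout (3.60 ± 0.23, limma adjusted p = 0.00158). Cxcl3, a neutrophil attractant, had 5.74 and 1.28 FPKM against 87.7 and 23 (3.56 ± 0.14). Pf4, encoding platelet factor 4, had 202 and 220 FPKM against 951 and 1246 (2.36 ± 0.11), and Ppbp, another platelet-type chemokine gene, 3.11 and 2.64 against 14.1 and 13.2. In all 4 genes both knockout libraries lay above both wild type libraries, as in 11.4% of all tested genes. Cxcl13, a B cell attractant that serous cavity macrophages make, had 133 and 111 FPKM against 751 and 410. Cxcl14 was the lower member, with 45.8 and 18.3 FPKM in wild type and 13.8 and 10.4 in the knockout. In the fit of 8 libraries 6 chemokine genes and 2 cytokine genes passed, all higher.

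Genes that NF-kB induces and that restrain it or protect the cell were higher in 11 of 25 tested members (44.0%) and lower in none, with a median difference of 0.70. Sod2, encoding mitochondrial superoxide dismutase, had 30.4 and 40.1 FPKM in wild type and 165 and 109 in the knockout (1.91 ± 0.24, limma adjusted p = 0.0112). Icam1, an adhesion molecule gene, had 30.8 and 17.3 FPKM against 97.1 and 41.5. Bcl2a1a, an anti-apoptotic gene with near-identical copies, had 13 and 60.0 FPKM against 57.9 and 215. With quantile scaling 4 members passed, and 6 did in the fit of 8 libraries.

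Effector enzymes differed in few members, with 4 higher (22.2%) and 1 lower (5.56%) of 18 tested. Ptges, encoding the prostaglandin E synthase of macrophages, had 9.87 and 12.5 FPKM in wild type and 123 and 53.7 in the knockout (2.76 ± 0.34, limma adjusted p = 0.00987). Ptgs2, the inducible cyclooxygenase gene upstream of it, had 0.508 and 7.66 FPKM against 10.7 and 20.2. Mmp9, encoding gelatinase B, had 4.13 and 12.8 FPKM against 34.4 and 49.8. Both enzymes of prostaglandin E2 synthesis were thus higher, while Ptgis, encoding prostacyclin synthase, was among the lowest genes of the comparison. It had 99.5 and 65.5 FPKM in wild type and 7.99 and 7.36 in the knockout (-3.24 ± 0.16, adjusted p = 0.000842).

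Complement and coagulation genes moved in both directions, with 10 of 24 tested members higher (41.7%), 10 lower (41.7%) and a median difference of -0.04, or -0.42 over the 22 members left by the filter on the mean. Of the 24, 3 entered the test only through the knockout and 1 only through wild type. Beside Cfb, the higher members included C3, the component on which all complement pathways converge, with 52.5 and 60.8 FPKM in wild type and 253 and 252 in the knockout (2.14 ± 0.13, limma adjusted p = 0.00129). C1ra, a protease gene of the classical pathway, had 4.16 and 3.30 FPKM against 19.9 and 15.4, and C1s1 0.199 and 0.204 against 6.70 and 5.11. Cfp, encoding properdin, which stabilises the alternative pathway convertase, had 160 and 207 FPKM against 328 and 427. The recognition subunit genes of the classical pathway were lower instead. C1qa had 905 and 572 FPKM in wild type and 621 and 416 in the knockout, and C1qc 1015 and 560 against 472 and 281. C4b, encoding component 4, had 357 and 352 FPKM against 135 and 129 (-1.42 ± 0.11), and the receptor gene C3ar1 181 and 184 against 60.2 and 55.0. The clotting genes also split. F7 was higher, while F5, encoding factor V, had 64.8 and 89.2 FPKM in wild type and 10.3 and 15.9 in the knockout (-2.48 ± 0.13), and F13a1, encoding a factor XIII subunit, 37.2 and 16.5 against 8.59 and 4.27. In the fit of 8 libraries 6 members passed as higher and 4 as lower.

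The 14 genes furthest below wild type were led by Vsig4, encoding a complement receptor of tissue-resident macrophages (X chromosome, 96247203 to 96293438). It had 165 and 96.9 FPKM in wild type and 7.93 and 3.57 in the knockout, a difference of -4.32 ± 0.13 (limma adjusted p = 0.000511). Cd209a and Cd209b encode lectins of the DC-SIGN type that bind sugars on microbes. Cd209a had 19.8 and 15.6 FPKM in wild type and 0.156 and 0.0914 in the knockout (-4.05 ± 0.19), and Cd209b 5.46 and 4.72 against 0.118 and 0.0997. Selp, encoding the adhesion molecule P-selectin, had 11.7 and 21.6 FPKM against 0.732 and 2.08. Ear2, a ribonuclease gene of a multicopy family, had 24.8 and 16.1 FPKM against 2.39 and 1.27. Lgmn, encoding the lysosomal protease legumain, was the most abundant of the group, with 478 and 382 FPKM against 113 and 104 (-1.97 ± 0.12). The remaining members were Ptgis, F5, Apoc1, Apoc4, Mmp27, Pianp, Nedd4 and Mamdc2, whose differences ran from -3.24 to -2.11. Both knockout libraries lay below both wild type libraries for these genes, as they did for 746 (9.0%) of all tested genes.

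Markers of resident large peritoneal macrophages, the self-renewing population that carries the transcription factor GATA6, were split. Of 19 tested, 6 were lower (31.6%) and 4 higher (21.1%), with a median difference of -0.31, and 2 entered the test only through wild type. The macrophage genes Adgre1, encoding F4/80, and Csf1r, encoding the growth factor receptor of the lineage, were present at similar levels, with 289 and 307 FPKM for Adgre1 in wild type and 329 and 307 in the knockout, and 689 and 546 against 675 and 533 for Csf1r. The label of the cells as macrophages was thus matched by these markers in all 4 libraries. Gata6 had 15.7 and 2.30 FPKM in wild type, against 3.49 and 0.874 in the knockout (-1.36 ± 0.29), so that the knockout with vehicle lay above wild type with nicotine. Cd5l, encoding a secreted inhibitor of apoptosis, was lower by a difference of -0.85 ± 0.12, and Vsig4, Selp and F5 were lower as given above. On the other side, the scavenger receptor gene Marco had 198 and 196 FPKM in wild type and 1646 and 1357 in the knockout (2.92 ± 0.11, limma adjusted p = 0.00062). Timd4, a receptor gene for dying cells, had 20.3 and 34.5 FPKM against 85.7 and 78.3, and Cxcl13 and the factor X gene F10 were higher too. Markers of small or monocyte-derived peritoneal macrophages were also split over the 13 tested. Ly6c2 and Ccl17 were higher (15.4%), and Cd209a, F13a1, Fcrls, Clec4b1 and Folr2 were lower (38.5%), beside 5.56% and 4.92% of all tested genes. Of the 13, 1 entered the test only through the knockout (Ly6c2) and 4 only through wild type, Cd209a and Fcrls among them. In bulk RNA, fewer cells of a type and less RNA per cell cannot be told apart.

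**Figure D4:**
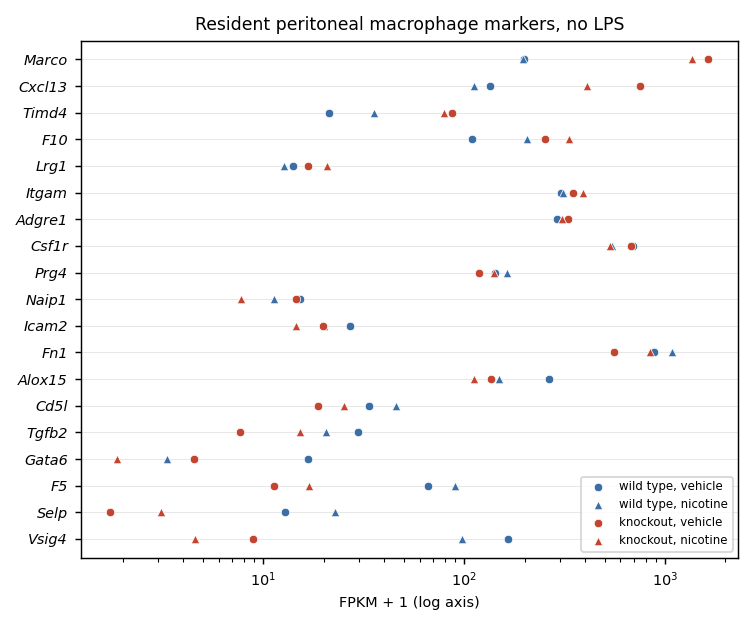
FPKM + 1 on a log axis is plotted for the 19 tested markers of resident large peritoneal macrophages, with 1 point for each of the 4 libraries. Adgre1 and Csf1r sit at the same level in both genotypes, while Marco lies above and Vsig4 below wild type in both pairs.

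Genes of lipid handling included 9 of 22 tested members that were lower (40.9%) and 1 that was higher (4.55%), with a median difference of -0.40. Apoe, encoding the lipoprotein that carries cholesterol out of macrophages, had 14412 and 10920 FPKM in wild type and 3036 and 3232 in the knockout (-2.00 ± 0.12, limma adjusted p = 0.00128). Its neighbours in the apolipoprotein cluster on chromosome 7 (19671579 to 19699188, 27610 bp) were lower as well. Apoc1 had 48.3 and 26.4 FPKM against 6.65 and 6.70 (-2.26 ± 0.22), Apoc2, encoding the cofactor of lipoprotein lipase, 98.4 and 43.5 against 32.4 and 15.5, and Apoc4 19.3 and 5.49 against 1.77 and 0.386. All 4 genes of the cluster had both knockout libraries below both wild type libraries, as had 9.0% of all tested genes. Pltp, the phospholipid transfer protein gene, had 270 and 221 FPKM against 69.4 and 64.4 (-1.85 ± 0.12). Pparg, encoding a nuclear receptor for fatty acids, and its textbook targets Cd36 and Fabp4 were lower too. Cd36, a fatty acid and scavenger receptor gene, had 479 and 727 FPKM in wild type and 208 and 393 in the knockout, and Fabp4, encoding a fatty acid carrier, 447 and 776 against 188 and 471. The desaturase gene Scd2 was the 1 higher member (0.80 ± 0.14). In the fit of 8 libraries 6 members passed, all lower.

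Receptors that take up dying cells and modified lipid were lower in 6 of 18 tested members (33.3%) and higher in 2 (11.1%), Marco and Timd4. Pros1, encoding the bridging protein S, had 62.2 and 47.3 FPKM in wild type and 22.2 and 17.8 in the knockout (-1.40 ± 0.13, limma adjusted p = 0.00406). Colec12, a scavenger collectin gene, had 41.3 and 63.7 FPKM against 12.9 and 25.7, and Mfge8, a bridging molecule gene, 19.5 and 18.6 against 7.51 and 9.99. Of 23 lysosomal genes 7 were lower (30.4%) and 2 higher (8.7%). Ctsd, encoding cathepsin D, had 6278 and 6599 FPKM in wild type and 2295 and 3688 in the knockout (-1.15 ± 0.14), while Ctsc, encoding cathepsin C, had 128 and 156 against 307 and 267. The lysosomal count depended on the fit, with 1 lower and 0 higher in the fit of 8 libraries.

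Immediate early genes, the transcription factors that respond within minutes to stimuli, were lower in 6 of 23 tested members (26.1%) and higher in none, with a median difference of -0.37. Of the 23, 3 entered the test only through wild type. Nr4a1, an orphan nuclear receptor gene, had 9.07 and 7.48 FPKM in wild type and 2.22 and 3.41 in the knockout (-1.30 ± 0.21), and reached 5 FPKM in wild type only. Myc had 4.61 and 10.7 FPKM against 1.93 and 3.37. Atf3, encoding a stress-induced repressor, had 136 and 527 FPKM against 66.7 and 348, so that the nicotine library was the higher one within each genotype. With quantile scaling 2 members passed. Glycolysis genes were higher in 10 of 18 tested members (55.6%) and lower in 1 (5.56%), with a median difference of 0.52. Pgk1, the phosphoglycerate kinase gene, had 80.9 and 154 FPKM in wild type and 215 and 349 in the knockout (1.29 ± 0.12), and Eno1, encoding enolase, 254 and 242 against 449 and 479. Ldhb, encoding the heart-type lactate dehydrogenase subunit, was the lower member (-1.01 ± 0.13). Only 3 passed with quantile scaling and 4 in the fit of 8 libraries. All 30 oxidative phosphorylation genes lay above 0, with a median of 0.33, but 4 passed (13.3%), and none with quantile scaling. Of 30 ribosomal protein genes 3 passed as lower (10.0%), with a median of -0.29, and none did with quantile scaling.

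Genes of cholinergic receptors and their partners were mostly too low to be tested, so their list cannot show how many differed. Of 32 cholinergic receptor and partner genes listed, 18 were at 0 in all 4 libraries, and 1 was tested. It was Ly6e, encoding a Ly6-type surface protein, with 172 and 96.0 FPKM in wild type and 556 and 303 in the knockout (1.67 ± 0.11, limma adjusted p = 0.00166). In the JAK2-STAT3 list 2 of 19 tested members were higher (10.5%) and 1 lower (5.26%), beside 5.56% and 4.92% of all tested genes. Among the higher ones was Socs2, an inhibitor of cytokine signalling (0.95 ± 0.21), which entered the test only through the knockout. The lower one was Il6ra, encoding the interleukin 6 receptor, with 26.4 and 23.7 FPKM in wild type and 16.0 and 10.0 in the knockout. Stat3 had 29.6 and 63.9 FPKM in wild type and 38.2 and 59.9 in the knockout, and did not pass (0.13 ± 0.16, adjusted p = 0.618). Jak2 had 16.9 and 19.3 FPKM against 40.6 and 18.2 (0.57 ± 0.30, adjusted p = 0.283). The Notch target Hes1 was the 1 of 9 Notch pathway genes to pass (11.1% lower, beside 4.92% of all tested genes). It had 1.99 and 12.7 FPKM in wild type and 0.321 and 4.50 in the knockout (-1.25 ± 0.19), and entered the test only through wild type.

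A targeted allele can carry flanking DNA of the strain in which it was made, so genes near Chrna7 were described too. Within 5000000 bases on either side the table held 62 genes, 30 of them at 0 in all 4 libraries. Of 12 tested, Mef2a, a transcription factor gene, and the flippase gene Atp10a were lower (16.7%) and Snrpa1, a splicing factor gene, was higher (8.33%). Over all tested genes 4.92% were lower and 5.56% higher. Atp10a reached 5 FPKM in wild type only and entered the test through it. Mef2a had 89.2 and 90.3 FPKM in wild type and 47.8 and 41.7 in the knockout (-0.99 ± 0.13, limma adjusted p = 0.0124). On chromosome 7 as a whole 11.4% of 570 tested genes passed, near the 10.5% of all tested genes. Y-linked genes were present in all 4 libraries, with Ddx3y at 14.4 to 32.1 FPKM.

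Heat shock, cell cycle, amino acid stress, cholesterol synthesis and antioxidant genes showed few or no differences. Of 12 heat shock genes and 5 cell cycle genes none passed. Of 22 amino acid stress genes 1 passed (Atf3, 4.55%), and of 21 cholesterol synthesis genes 1 (Fdps, 4.76%). Antioxidant genes passed in 2 of 19 (Nqo1 and Txn1, 10.5%, the share of all tested genes). Hmox1, encoding haem oxygenase 1, had 313 FPKM in wild type with vehicle and 501 in the knockout, but 5471 and 2676 with nicotine (-0.18 ± 0.37, limma adjusted p = 0.79). Of 19 pattern recognition receptor genes 1 was higher (5.26%, near the 5.56% of all tested genes). It was Tlr4, the receptor for LPS, with 15.8 and 9.07 FPKM in wild type and 28.7 and 18.4 in the knockout (0.88 ± 0.12, adjusted p = 0.0151). Tlr8, Tlr13 and Naip5 were lower (15.8%). Of 13 alternative activation genes Ccl17 and Ccl22 were higher (15.4%) and Cd209a and Ear2 lower (15.4%). Both lower genes entered the test only through wild type. Of 9 Fc receptor genes Fcgr1 and Fcer1g were higher (22.2%) and Fcgrt lower (11.1%). Over all tested genes the shares were 5.56% higher and 4.92% lower.

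Markers of other cell types were given as sums of FPKM over each list. The 15 B cell markers in the table summed to 332 and 351 FPKM in wild type and 317 and 263 in the knockout, and 1 of 12 tested, Bach2, was lower. The 13 mast cell markers summed to 227 and 433 FPKM in wild type and 170 and 330 in the knockout, and 1 of 7 tested, Cpa3, was lower. The 15 T cell markers summed to 45.3 and 103 FPKM against 38.6 and 80.8, with Il7r lower of 3 tested. The 11 natural killer cell markers summed to at most 3.58 FPKM and the 14 mesothelial or fibroblast markers to at most 3.13, and none was tested. The 13 neutrophil markers had sums of 102 to 184 FPKM in wild type and 99.0 to 200 in the knockout. Of 5 tested, S100a8 was higher (20.0%) and Csf3r, Cd177 and Ifitm6 were lower (60.0%). Cd177 and Ifitm6 reached 5 FPKM in wild type only and entered the test through it. The granule gene Ngp was at 0 in all 4 libraries and Mpo, Cxcr2 and Elane were at most at 0.112 FPKM. Of 8 eosinophil markers Ear2 alone was tested, and Epx was at 0. Of 9 red cell or platelet markers Pf4 and Ppbp were tested and higher, while the haemoglobin genes Hbb-bs, Hba-a1 and Hba-a2 were at 0. Of 12 dendritic cell markers Bst2 was higher and Cd209a lower of 5 tested. Ear2 and Cd209a entered the test only through wild type, and Ppbp only through the knockout. The counts of these short lists are to be read against 5.56% higher and 4.92% lower over all tested genes. The part of other cell types in the results above was not tested.

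The libraries with LPS were the only other ones of these genotypes, and the same genes were read there. Of the 461 genes higher without LPS, 386 (83.7%) were higher in the knockout in both LPS pairs, where 30.8% of all tested genes were, and their median difference was 1.00 without and 0.76 with LPS. Of the 408 lower genes 275 (67.4%) were lower in both LPS pairs, against 33.3% of all tested genes, with medians of -0.86 and -0.45. At least 2-fold differences in both LPS pairs were found for 90 of the 461 (19.5%, against 1.39% of all tested genes) and 35 of the 408 (8.58%, against 0.579%). In the fit of 8 libraries 90 of the 461 and 41 of the 408 passed with LPS, where 1.36% and 0.675% of all tested genes did. The spread in that fit is shared with the libraries without LPS. Genes called there for a small spread are favoured to pass with LPS too, so these counts are not a separate check. The wild type and knockout cells with LPS may come from the same preparations as those without, so they are not independent animals.

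The 14 lowest genes kept their sign in both LPS pairs, and 9 passed there, the others being Selp, Mmp27, Nedd4, Mamdc2 and Apoc1. Vsig4 had 64.6 FPKM in wild type with LPS and 114 with nicotine and LPS, against 3.85 and 2.33 in the knockout, a difference of -4.43 ± 0.31 (limma adjusted p = 0.00877) beside -4.32 without LPS. Lgmn had 184 and 258 FPKM against 58.5 and 52.7 (-1.95 ± 0.19), and Apoe 12732 and 10266 against 3708 and 2603 (-1.88 ± 0.15). Of the 14 highest genes, all but Cxcl3 kept their sign in both LPS pairs, and 6 passed. Ly6i had 6.48 and 0.873 FPKM in wild type and 168 and 58.1 in the knockout (4.74 ± 0.29). Ccl5 had 13986 and 2087 FPKM in wild type and 15078 and 3286 in the knockout, a difference of 0.38 ± 0.25 with LPS beside 3.60 without. Isg15 had 3439 and 3488 FPKM against 4675 and 4043, a difference of 0.33 with LPS beside 2.73 without. Levels of both genes with LPS were far above those of any library without it. The difference between the genotype effects with and without LPS, tested as an interaction in limma, passed for no gene, with 697 genes (8.4%) at an unadjusted p under 0.05. For Ccl5 the interaction was -3.22 (unadjusted p = 0.000148, adjusted p = 0.41) and for Isg15 -2.40 (unadjusted p = 5.75e-05, adjusted p = 0.41).

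**Figure D5:**
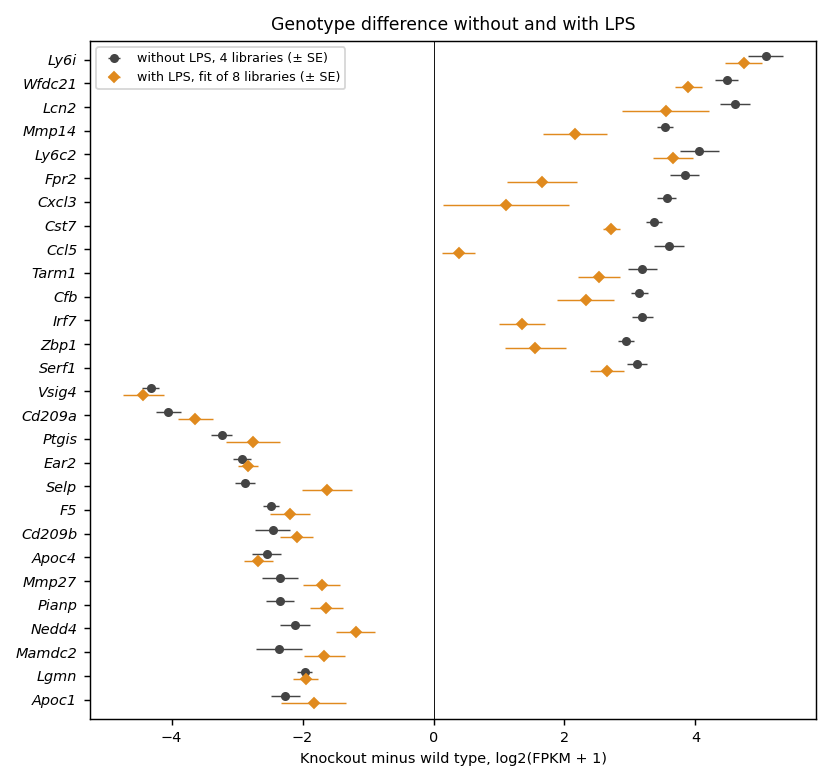
For the 14 genes furthest above and the 14 furthest below wild type, the knockout minus wild type difference in log2(FPKM + 1) is shown without LPS (grey circles, fit of 4 libraries) and with LPS (orange diamonds, fit of 8 libraries), with bars of 1 SE. All 14 lower genes lie left of 0 in both, with Vsig4 at -4.32 and -4.43 and Selp at -2.88 without and -1.63 with LPS, while Ccl5 moves from 3.60 without LPS to 0.38 with LPS.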

How the data were processed

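Gene expression in cultured mouse peritoneal macrophages was read from the authors' deposited table of FPKM values, 1 per gene and library, for 8 libraries, of which 4 had no LPS. Per the labels' protocols, plated cells were washed and treated a day later, and poly(A) RNA went into TruSeq v2 libraries. That kit does not mark strand, so overlapping genes on opposite strands cannot be told apart. Tools named in the submitters' processing notes, in no order, are HISAT2, Cufflinks, Cuffdiff and CASAVA 1.8, with mm10 as the build. For annotation and scaling, details were not given in the sources used here. If FPKM was scaled by each library's total, abundant genes such as Saa3 shift all others.

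FPKM values are not counts, and steps between low values (33.3% to 36.0% of low genes at the commonest ratio) did not recover counts, so no count test was run. For 2 repeated symbols 1 line was kept, leaving 24339 genes. Genes with at least 5 FPKM in any of the 4 libraries were tested on log2(FPKM + 1), a pseudocount of 1, with limma 3.58.1 in R 4.3.3 (trend, terms for genotype and nicotine, Benjamini-Hochberg at 0.05, two-sided). The fit of 8 libraries had LPS by genotype and LPS by nicotine terms and 2 residual degrees of freedom. On simulated data for the 8293 genes the comparison without LPS recovered 80% of 2-fold and 97% of 4-fold changes with 7.33% false calls, and the interaction 3% and 69% with 6.49%. The simulated noise followed limma's own fitted spread, without nicotine effects or differences between preparations. These rates therefore check the code and do not give the false calls in the real libraries. Positions are from GENCODE M21 on GRCm38 (96.4% of tested genes matched by symbol) and promoter bases from RefSeq, GRCm38.p6. Python 3.11.15, pandas 2.3.3, NumPy 2.4.6 and Matplotlib 3.10.9 did the rest.

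Named genes were the 14 highest and 14 lowest by the smaller of the 2 pair differences among genes that passed, without predicted, Rik and small RNA genes, the 4 with the largest opposite differences, up to 3 tested members with the highest and 3 with the lowest mean difference in each list, the genes of the question and the neighbours of Chrna7. Other members of the lists were named after their values were seen. The 29 lists, 11 marker lists and the rule were chosen with earlier results of these data known. Some members of the lists are counted but not reported here by name.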

Additional observations from a re-analysis of the deposited data

Results flagged for a closer look

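In 27 of the 8293 tested genes (0.326%) the genotype difference had opposite signs in the vehicle and the nicotine pair, each by at least 0.5 on the log2 scale, with 1 library per group. None of them passed limma's genotype test, and the difference between the pairs was not tested. The 4 with the largest opposite differences, predicted and small RNA genes left out, and Hmox1 are given. Knockout minus wild type was 1.085 with vehicle and -0.8169 with nicotine for Hspa1b, and 0.7653 and -0.913 for Hspa1a, inducible heat shock protein genes whose near-identical sequences can share reads. Hspa1b had 0.740 FPKM in wild type and 2.69 in the knockout with vehicle, and 28.9 and 16.0 with nicotine. The difference was 0.7336 and -1.162 for Cd40, a costimulatory receptor gene with 12.8 and 22 FPKM with vehicle and 48.3 and 21.0 with nicotine. For Bcl3, an atypical IkB gene, it was 0.9384 and -0.7321, and for Hmox1 0.6766 and -1.032. In these genes wild type with nicotine was the highest of the libraries without LPS.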

How the results depend on the processing

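The 869 calls became 860 with a pseudocount of 0.1, 841 where the filter took the mean at 5 FPKM, 685 with upper quartile scaling, 647 without the trend and 916 with a robust prior. They became 485 with a pseudocount of 5, 377 with quantile scaling, 231 with no filter beyond a value above 0 (15850 genes tested) and 297 in the fit of 8 libraries, of which 485, 374, 208 and 296 were among the 869 with the same direction. With genotype as the only term 0 passed in limma and 207 had an unadjusted p under 0.05, since nicotine then adds to the spread. A fit of 4 libraries has no residual degree of freedom once 1 is left out, so libraries were left out of the fit of 8, where a lone library is assumed to vary like the others: calls ran from 4 without a vehicle library (of either genotype) to 65 without knockout nicotine and 69 without wild type nicotine. No list then kept more than 1 called member without a vehicle library or more than 7 without a nicotine library. Of the 28 genes furthest from wild type, 26 passed in the fit of 8 libraries and 0 with genotype as the only term. All 28 passed under the remaining settings with 4 libraries, except that 4 were not tested where the filter took the mean. These 28 were picked from the same libraries, so their passing is not a separate check.

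The 271 genes at least 2-fold apart in both pairs became 147 with a pseudocount of 5, 695 at 1.5-fold and 104 at 3-fold, and with 1 pair left ran from 424 without a vehicle library to 557 without a nicotine library. The interaction count of 0 became 1 (Cxcl3) without the wild type or the knockout library given nicotine and LPS, and was 0 without each of the others.

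Signs that turned were those of genes that did not pass. Hspa1b came to -0.14 with a pseudocount of 5 and Hspa1a to 0.19 with a pseudocount of 0.1. Without either vehicle library Hspa1b came to -0.82, Bcl3 to -0.73, Ifi204 to -0.14, Tnf to -0.47, Adgre1 to -0.0014, Stat3 to -0.092 and Jak2 to -0.080, and without either nicotine library Hspa1a to 0.77, Cd40 to 0.73 and Hmox1 to 0.68, which are the values of the remaining pair. Libraries could not be paired by animal or preparation, because each group is 1 library and the labels give no replicate numbers. They were paired by nicotine, which is part of the design. The depth in reads is not known, so no counting error is given.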
